A study of Mus musculus with 12 samples.

Results

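Fatty acid handling in mouse monocytes is described here through 9 genes, Fabp4, Fabp5, Pparg, Rxra, Cd36, Lpl, Plin2, Acsl1 and Cpt1a, out of 23996 genes in each of 2 deposited tables. The 9 were chosen from their names and from the same tables that are described, since Fabp5 is among the largest differences in both, so their differences are given as a description and the authors' q-values beside them are no independent support. Total RNA was sequenced from Ly6Clow (patrolling) and Ly6Chigh (inflammatory) monocytes of C57Bl/6 mice. The mice had received muramyl dipeptide (MDP), the bacterial peptidoglycan fragment sensed by the receptor NOD2, or placebo, with 3 samples for each of the 4 groups. MDP titles state 16 h, and placebo titles use the word Naive without a time. No source used here gives age, sex or whether each sample came from its own animal. The q-values therefore cannot be read as a measure of spread between animals, and which spread they reflect is not known.

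The tables hold 1 value per condition, taken as FPKM (fragment counts corrected for transcript length and sequencing depth) by the convention of Cuffdiff, and the conditions are named q2 and q1. No source used here says which of them is MDP, and the numbering may differ between the tables, so every difference is q2 relative to q1 and none can be read as an effect of MDP. Without values per sample no SD can be given, and the depth is unknown. A gene is called where the authors' q-value, their p-value adjusted over all tested genes, is under 0.05. All 9 genes were tested in both tables, and none was lost to a filter on low values. The 10 defining monocyte genes were detected in every condition, and the levels of other cell types' markers are given after the results.

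As background, fatty acids enter a macrophage through CD36 or after lipoprotein lipase (LPL) has split them from triglycerides. FABP4 and FABP5 are small proteins that carry them through the cytosol, ACSL1 joins them to coenzyme A, CPT1A admits the product to mitochondria for oxidation, and PLIN2 coats the droplets in which the rest is stored. PPAR-gamma, the product of Pparg, is a nuclear receptor that binds fatty acids and, paired with RXR-alpha from Rxra, switches on genes of this set such as Fabp4, Cd36, Lpl and Plin2.

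PPAR and RXR pairs are known to bind a direct repeat of AGGTCA with 1 base between the copies, so the 250 bases before annotated starts were searched on both strands for AGGTCA and for that repeat, AGGTCANAGGTCA, each copy of which also counts as an AGGTCA. RefSeq starts (GRCm38.p6, the same assembly as mm10) gave 10 windows for 6 of the 9 genes. No window was available for Fabp4, Fabp5 or Lpl, so the counts do not cover them. The single copy was in 6 of these 10 windows and in 4607 of all 32851 windows, and the repeat was in 0 of 10 and in 11 of all. Windows of the same gene are not independent. Shown are 1 window each for the receptor pair and for Cd36, all outside the gene's own GENCODE exons, with AGGTCA or its reverse complement in capitals. They show these letters only, and no binding was measured.
Pparg, window 3, chr6:115421816-115422065, plus strand: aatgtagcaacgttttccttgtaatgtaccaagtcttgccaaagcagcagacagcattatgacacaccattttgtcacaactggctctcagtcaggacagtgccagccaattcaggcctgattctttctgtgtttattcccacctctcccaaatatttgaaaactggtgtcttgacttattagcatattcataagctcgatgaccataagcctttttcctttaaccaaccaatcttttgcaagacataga
Rxra, window 2, chr2:27709042-27709291, plus strand: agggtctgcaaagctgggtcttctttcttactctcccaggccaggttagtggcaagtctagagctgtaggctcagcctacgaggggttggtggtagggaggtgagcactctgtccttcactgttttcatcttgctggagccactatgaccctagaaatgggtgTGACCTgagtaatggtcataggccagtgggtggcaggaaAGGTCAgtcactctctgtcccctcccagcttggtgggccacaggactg
Cd36, chr5:17835897-17836146, minus strand: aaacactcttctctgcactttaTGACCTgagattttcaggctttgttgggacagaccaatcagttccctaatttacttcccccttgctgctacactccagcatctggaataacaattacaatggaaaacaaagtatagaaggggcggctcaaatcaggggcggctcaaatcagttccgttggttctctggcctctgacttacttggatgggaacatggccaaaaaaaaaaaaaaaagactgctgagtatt
The Pparg window shown holds no copy, whereas Pparg windows 1 and 2 hold 1 each, 28 and 9 bases before the start. Of the 250 bases of Pparg windows 1 and 2, 193 and 57 lie in GENCODE exons of the gene. The Rxra window shown holds 2 copies, 87 and 48 bases before the start, and Rxra window 1 holds none. In the Cd36 window the copy begins 228 bases before the start.

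Fabp5 was far higher in q2 in both subsets, whereas its neighbour Fabp4 was not called in either. In Ly6Clow monocytes Fabp5 was at 742 FPKM in q2 and 14.7 FPKM in q1 in the authors' deposited table, 50.6-fold higher (q = 0.000418). In Ly6Chigh monocytes it was at 486 FPKM in q2 and 31.6 FPKM in q1 in the authors' deposited table, 15.4-fold higher (q = 0.000859). Both q-values are the smallest their tables hold, shared with 1440 genes in all in the Ly6Clow and 677 in the Ly6Chigh table. The Fabp5 difference ranked 6 from the top of 10591 tested genes in Ly6Clow and 12 of 10487 in Ly6Chigh monocytes, counting genes with an FPKM of at least 1 in either condition and above 0 in both. Ranked by FPKM, Fabp5 was gene 127 in q2 and gene 4930 in q1 of the Ly6Clow table, and gene 196 in q2 and gene 2823 in q1 of the Ly6Chigh table. In bulk RNA, more cells that express a gene and more of its RNA per cell cannot be told apart.

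**Figure D1:**
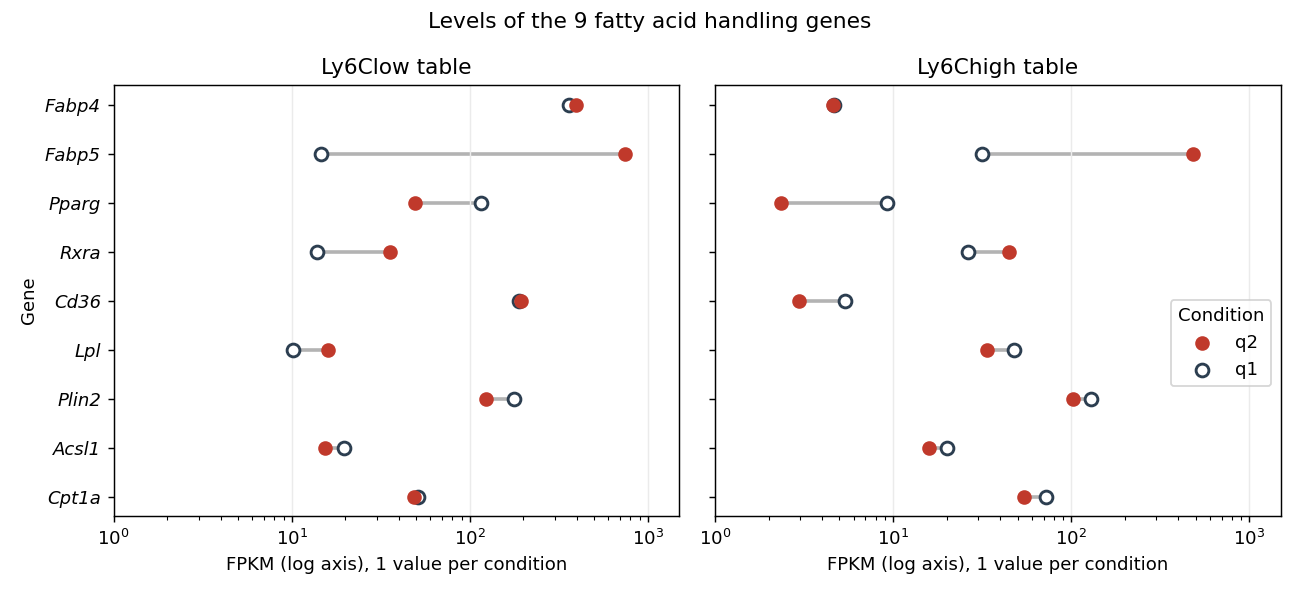
FPKM (x axis, logarithmic) of each of the 9 genes (y axis) in q2 (filled red) and q1 (open), as 1 deposited value per condition with no replicate error, for the Ly6Clow table (left) and the Ly6Chigh table (right). Fabp5 has the widest gap in both panels, at 742 and 14.7 FPKM in Ly6Clow and 486 and 31.6 FPKM in Ly6Chigh monocytes for q2 and q1.

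Fabp4, the fatty acid binding protein of adipocytes and macrophages, was high in Ly6Clow and low in Ly6Chigh monocytes in both conditions. It was at 394 FPKM in q2 and 360 FPKM in q1 of Ly6Clow monocytes (q = 0.42) and at 4.61 and 4.64 FPKM in q2 and q1 of Ly6Chigh monocytes (q = 0.995) in the authors' deposited table. The ratio of Fabp5 to Fabp4, both per length, was therefore 1.88 in q2 and 0.0407 in q1 of Ly6Clow monocytes, and 105 in q2 and 6.82 in q1 of Ly6Chigh monocytes. Fabp4 was the more abundant of the pair in Ly6Clow q1 alone. Their sum was 1136 FPKM in q2 and 375 FPKM in q1 of the Ly6Clow table, and 491 FPKM in q2 and 36.3 FPKM in q1 of the Ly6Chigh table.

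The genes lie in 1 cluster. Fabp5 spans 10012585 to 10016610 on chromosome 3 (mm10, plus strand) and Fabp4 spans 10204343 to 10208576 on the minus strand, 188 kb away. Pmp2 and Fabp9, which lie between them and encode further proteins of the family, were not tested: the highest of their values was 0.197 FPKM, for Fabp9 in q1 of the Ly6Clow authors' deposited table. Of the rest of the family, only Fabp7, the brain form, reached 1 FPKM in any condition. It was lower in q2 of Ly6Clow monocytes, at 1.95 FPKM against 4.22 FPKM in q1 (q = 0.00181, a call lost when p-values were taken from the deposited test statistic on a normal scale), and was at 2.46 FPKM in q2 and 3.16 FPKM in q1 of Ly6Chigh monocytes (q = 0.7), in the authors' deposited table.

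The receptor pair moved in opposite directions, and did so in both subsets. Pparg was at 49.3 FPKM in q2 and 115 FPKM in q1 of Ly6Clow monocytes, 2.34-fold lower (q = 0.000418), in the authors' deposited table. In Ly6Chigh monocytes it was at 2.35 FPKM in q2 and 9.27 FPKM in q1, 3.95-fold lower (q = 0.000859), in the authors' deposited table. Rxra was higher in q2, at 35.7 FPKM against 13.9 FPKM in q1 of Ly6Clow monocytes, 2.57-fold (q = 0.000418), in the authors' deposited table. In Ly6Chigh monocytes Rxra was at 45.0 FPKM in q2 and 26.4 FPKM in q1, 1.71-fold higher (q = 0.000859), in the authors' deposited table. This last call was also lost with p-values from the test statistic. The ratio of Rxra to Pparg was 0.724 in q2 and 0.120 in q1 of Ly6Clow monocytes, and 19.2 in q2 and 2.84 in q1 of Ly6Chigh monocytes. Pparg lies at 115361221 to 115490401 on chromosome 6 and overlaps 1 antisense gene on the other strand, Gm44079. The counting is not stated to use strand, so reads of the pair cannot be told apart, nor can transcripts from the separate Pparg starts. Rxra lies at 27677201 to 27763319 on chromosome 2 (mm10, plus strand).

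Beside these receptors, their relatives gave the following levels. Ppard, the widely expressed PPAR, was at 18.0 FPKM in q2 and 15.1 FPKM in q1 of Ly6Clow monocytes (q = 0.0904) and at 17.0 and 19.4 FPKM in q2 and q1 of Ly6Chigh monocytes (q = 0.621) in the authors' deposited table. Pparg made up 73.3% of summed PPAR FPKM in q2 and 88.4% in q1 of Ly6Clow monocytes, against 12.2% in q2 and 32.4% in q1 of Ly6Chigh monocytes. Ppara, the PPAR of liver oxidation, did not exceed 0.0168 FPKM. Rxrb, which encodes RXR-beta, was lower in q2 of Ly6Clow monocytes, at 37.4 FPKM against 47.3 FPKM in q1 (q = 0.0121), and at 40.8 and 57.0 FPKM in q2 and q1 of Ly6Chigh monocytes (q = 0.0816), in the authors' deposited table. Rxra was thus 48.8% of summed RXR FPKM in q2 and 22.7% in q1 of Ly6Clow monocytes, and 52.4% in q2 and 31.6% in q1 of Ly6Chigh monocytes.

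The uptake genes Cd36 and Lpl were each called in 1 subset. Cd36, a scavenger receptor that also takes up long-chain fatty acids, was at 195 FPKM in q2 and 190 FPKM in q1 of Ly6Clow monocytes (q = 0.861) in the authors' deposited table. In Ly6Chigh monocytes it was 1.81-fold lower in q2, at 2.98 FPKM against 5.40 FPKM in q1 (q = 0.00661), in the authors' deposited table, a call lost with p-values from the test statistic. Cd36 spans 17781690 to 17888959 on chromosome 5 (mm10, minus strand) and Lpl 68880555 to 68906932 on chromosome 8 (plus strand). Lpl was 1.57-fold higher in q2 of Ly6Clow monocytes, at 16.0 FPKM against 10.2 FPKM in q1 (q = 0.000418), in the authors' deposited table. In Ly6Chigh monocytes Lpl was at 33.9 FPKM in q2 and 47.8 FPKM in q1 (q = 0.07) in the authors' deposited table. On the log2 scale the Lpl difference between conditions was 0.65 in Ly6Clow and -0.50 in Ly6Chigh monocytes, and the Cd36 difference was 0.04 and -0.86; whether the subsets differ in this was not tested.

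Storage, activation and oxidation genes differed little, in each case with the lower value in q2. Plin2 was at 123 FPKM in q2 and 178 FPKM in q1 of Ly6Clow monocytes, 1.44-fold lower (q = 0.000418), and at 103 and 129 FPKM in q2 and q1 of Ly6Chigh monocytes (q = 0.273), in the authors' deposited table. Acsl1 was at 15.5 FPKM in q2 and 19.6 FPKM in q1 of Ly6Clow monocytes, 1.27-fold lower (q = 0.0139), in the authors' deposited table. In Ly6Chigh monocytes it was at 15.9 FPKM in q2 and 20.1 FPKM in q1 (q = 0.27) in the authors' deposited table, a nearly equal log2 difference of -0.34 in both tables. The Ly6Clow calls of Plin2 and Acsl1 were lost with p-values from the test statistic. Cpt1a was at 48.7 FPKM in q2 and 51.4 FPKM in q1 of Ly6Clow monocytes (q = 0.671) and at 54.4 and 72.1 FPKM in q2 and q1 of Ly6Chigh monocytes (q = 0.144) in the authors' deposited table. In mm10 Plin2 lies at 86656565 to 86670059 on chromosome 4, Acsl1 at 46471042 to 46536050 on chromosome 8 and Cpt1a at 3323301 to 3385733 on chromosome 19, all 3 protein-coding. Acsl1 overlaps 1 gene model on the other strand, Gm45244, so the limit on strand given for Pparg holds for it too.

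Plin2 was the main perilipin, at 83.2% of summed perilipin FPKM in q2 and 90.0% in q1 of Ly6Clow monocytes, and 74.9% in q2 and 84.6% in q1 of Ly6Chigh monocytes. Plin3, a perilipin also found in the cytosol, was called higher in q2 in both tables, at 24.9 FPKM against 19.7 FPKM in q1 of Ly6Clow monocytes (q = 0.0184) and 34.4 FPKM against 23.4 FPKM in q1 of Ly6Chigh monocytes (q = 0.0429), in the authors' deposited table. Acsl1 was not the main long-chain acyl-CoA synthetase gene. Acsl5 was at 91.5 and 86.9 FPKM in q2 and q1 of Ly6Clow monocytes (q = 0.675) and at 62.3 and 60.8 FPKM in q2 and q1 of Ly6Chigh monocytes (q = 0.952) in the authors' deposited table. Acsl4, which prefers arachidonic acid, was higher in q2 of Ly6Chigh monocytes, at 11.97 FPKM against 7.29 FPKM in q1 (q = 0.00756), in the authors' deposited table. In Ly6Clow monocytes Acsl4 was at 13.9 FPKM in q2 and 12.8 FPKM in q1 (q = 0.486) in the authors' deposited table. Cpt1a held between 96.6% and 98.5% of summed Cpt1a, Cpt1b and Cpt1c FPKM in every condition.

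Counted together, 6 of the 9 genes were called in Ly6Clow monocytes, 3 higher (Fabp5, Rxra, Lpl) and 3 lower (Pparg, Plin2, Acsl1) in q2. Called genes were 26.3% of all 12042 tested in that subset, 14.2% higher and 12.2% lower. In Ly6Chigh monocytes 4 of 9 were called, 2 higher (Fabp5, Rxra) and 2 lower (Pparg, Cd36), beside 14.6% of 11626 tested genes, 7.07% higher and 7.54% lower. Since the genes were chosen with these contrasts in view, nothing is read from those shares. The median log2 difference of the 9 was 0.04 in Ly6Clow and -0.34 in Ly6Chigh monocytes, against -0.0031 and 0.0089 for tested genes with an FPKM of at least 1. Without Fabp5, the summed FPKM of the other 8 was 878 in q2 and 938 in q1 of Ly6Clow monocytes, and 262 in q2 and 315 in q1 of Ly6Chigh monocytes. Fabp5 alone made up 45.8% of the 9-gene sum in q2 and 1.54% in q1 of Ly6Clow monocytes, and 65.0% in q2 and 9.13% in q1 of Ly6Chigh monocytes.

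**Figure D2:**
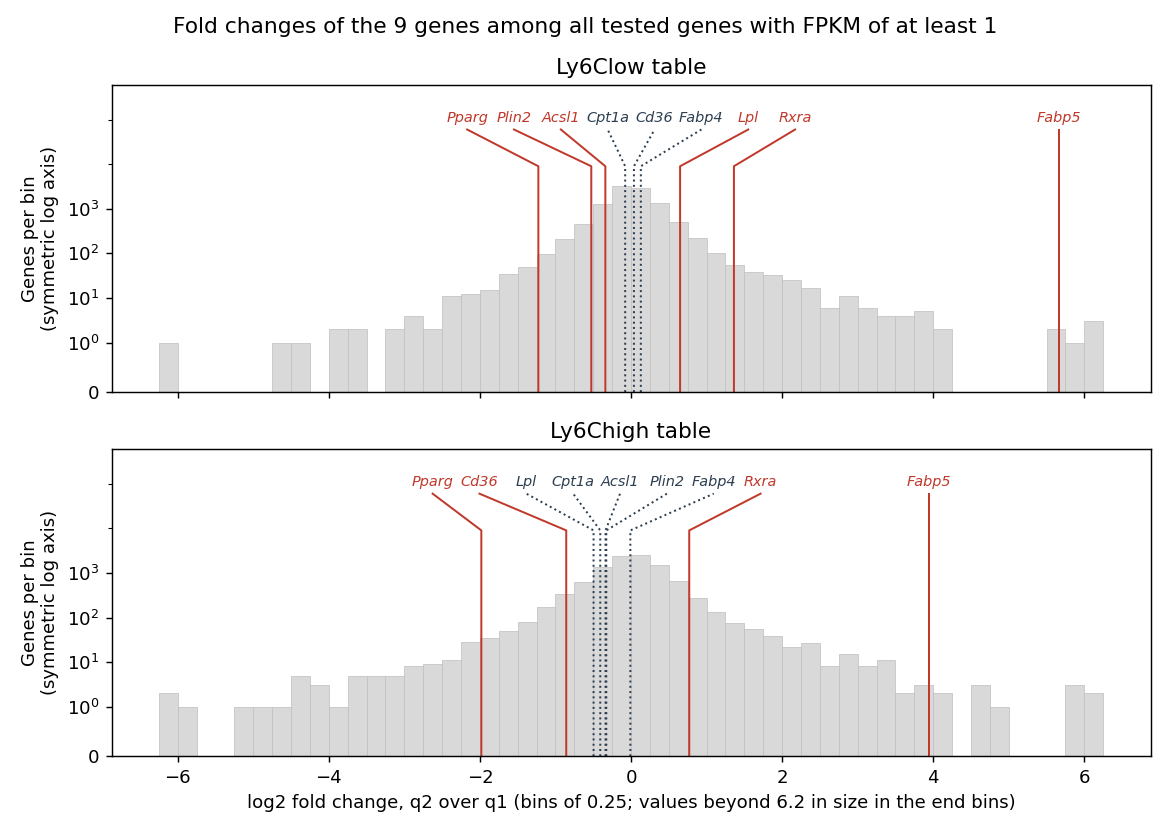
Number of tested genes (y axis, symmetric log) by log2 fold change of q2 over q1 (x axis), with the 9 genes as lines, solid red where called by the authors and dotted where not, for the Ly6Clow table (top) and the Ly6Chigh table (bottom). Fabp5 stands at 5.66 in Ly6Clow and 3.94 in Ly6Chigh monocytes, while the other 8 lie between -1.98 and 1.36.

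The subsets differed most in Fabp4, Cd36 and Pparg. These levels come from separate tables that may have been normalized separately, with no test between them, and log2 ratios were taken after adding 1 to each FPKM. Fabp4 was 85.5-fold higher in Ly6Clow than in Ly6Chigh monocytes in q2 and 77.7-fold higher in q1, and ranked 8 of 10733 and 3 of 10713 genes by that log2 ratio in the 2 conditions. Cd36 was 65.5-fold higher in Ly6Clow monocytes in q2 and 35.2-fold higher in q1, and Pparg 21.0-fold and 12.4-fold higher in q2 and q1. The order Fabp4, Cd36, Pparg was the same in both conditions, though with no spread over samples it cannot be said which neighbours differ beyond it. Lpl was the member lowest in Ly6Clow relative to Ly6Chigh monocytes, 2.11-fold lower in q2 and 4.68-fold lower in q1. Rxra was 1.26-fold lower in Ly6Clow monocytes in q2 and 1.90-fold lower in q1.

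Fabp5 was the one gene of the 9 whose order between the subsets differed between the conditions, at 742 FPKM in Ly6Clow against 486 FPKM in Ly6Chigh monocytes in q2, and at 14.7 FPKM against 31.6 FPKM in q1, in the authors' deposited table. Plin2, Acsl1 and Cpt1a differed by at most 1.40-fold between subsets in both conditions. Rescaling each condition to the same sum added 0.12 in q2 and 0.17 in q1 to a log2 ratio, which turned the direction of Acsl1, whose log2 ratio was -0.04 in both conditions. The condition names need not match between the tables, so q2 set beside q2 is a pairing of names only.

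**Figure D3:**
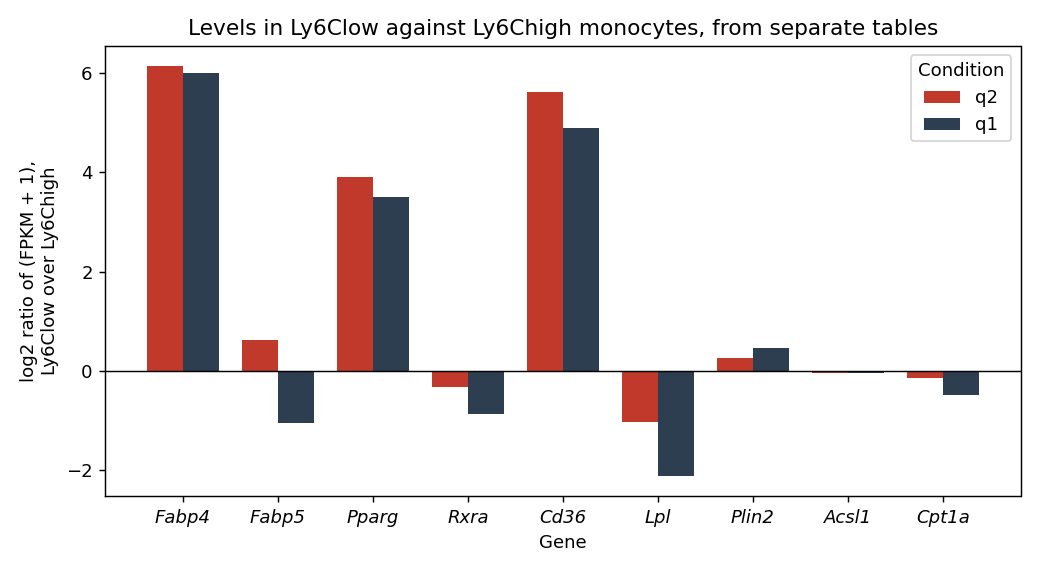
Log2 ratio of (FPKM + 1) in Ly6Clow over Ly6Chigh monocytes (y axis) for each gene (x axis) in q2 (red) and q1 (dark), from 1 value per condition with no replicate error. Fabp4, Cd36 and Pparg are between 3.50 and 6.14, Lpl is at -1.03 in q2 and -2.12 in q1, and Fabp5 is at 0.61 in q2 and -1.06 in q1.

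Around the 9, 8 lists of genes with related roles were described with the 9 left out. They held 154 genes in all, of which 104 were tested with an FPKM of at least 1 in Ly6Clow and 107 in Ly6Chigh monocytes. In Ly6Clow monocytes 43 were called, 30 higher and 13 lower in q2, which is 41.3%, beside 27.6% of all tested genes with that FPKM. In Ly6Chigh monocytes 17 were called, 11 higher and 6 lower, or 15.9% beside 15.3%. The median log2 difference was 0.08 in both tables. With p-values from the test statistic 12 and 5 genes were called in the Ly6Clow and Ly6Chigh tables, beside 7.79% and 5.65% of all tested genes at any FPKM. Counts from the test statistic for single lists below belong beside the same shares. Of the called genes, 8 had the same direction in both tables, 18.6% of the Ly6Clow and 47.1% of the Ly6Chigh calls: Fads2, Nr1h3, Plin3, Acat1, Acot7, Dbi and Etfb were higher and Abca1 lower in q2. Abcd2, a peroxisomal importer of fatty acids, was called in opposite directions.

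Genes known as PPAR targets outside the 9 were 7 higher and 1 lower of 20 in Ly6Clow monocytes, with a median log2 difference of 0.18, and 3 higher and 2 lower of 19 in Ly6Chigh monocytes, with a median of 0.15. From the test statistic 2 were called higher and 1 lower in each subset. Nr1h3, which encodes the sterol-sensing receptor LXR-alpha, was at 19.1 FPKM in q2 and 14.5 FPKM in q1 of Ly6Clow monocytes (q = 0.0112) and at 9.64 and 4.04 FPKM in q2 and q1 of Ly6Chigh monocytes (q = 0.000859) in the authors' deposited table. Abca1, the cholesterol exporter, was at 0.934 FPKM in q2 and 3.85 FPKM in q1 of Ly6Clow monocytes and at 0.260 and 1.24 FPKM in q2 and q1 of Ly6Chigh monocytes in the authors' deposited table, lower in both. Fads2, a desaturase, was at 1.76 FPKM in q2 and 0.704 FPKM in q1 of Ly6Clow monocytes (q = 0.00114) in the authors' deposited table. Tgm2, transglutaminase 2, was at 11.9 FPKM in q2 and 5.29 FPKM in q1 of Ly6Chigh monocytes (q = 0.000859) in the authors' deposited table. In Ly6Clow monocytes Tgm2 was at 154 FPKM in q2 and 166 FPKM in q1 (q = 0.559) in the authors' deposited table. Arg1, arginase 1, was at 1.79 FPKM in q2 and 0.464 FPKM in q1 of Ly6Clow monocytes (q = 0.000418) in the authors' deposited table.

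Receptors and coregulators other than Pparg and Rxra were 1 higher and 3 lower of 12 in Ly6Clow monocytes (median log2 difference -0.15), and 0 of 12 were called in Ly6Chigh monocytes by the authors' Cuffdiff test (median -0.17), where 2 had an unadjusted p under 0.05 and 0 were called from the test statistic. In Ly6Clow monocytes 1 of those 4 calls was made from the test statistic, a higher one. The coactivator genes Ncoa1 and Ncoa2 were 1.24-fold lower each in q2 of Ly6Clow monocytes (q = 0.0198 and 0.0232) in the authors' deposited table. Lpin1, a phosphatidate phosphatase that also acts as a coactivator, was at 8.22 FPKM in q2 and 3.84 FPKM in q1 of Ly6Clow monocytes (q = 0.000418) in the authors' deposited table.

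Uptake and lipolysis genes other than Cd36 and Lpl were 5 higher and 1 lower of 12 in Ly6Clow monocytes (median 0.26), and 0 of 11 were called in Ly6Chigh monocytes by the authors' Cuffdiff test (median 0.12), where 3 had an unadjusted p under 0.05 and 0 were called from the test statistic. The Ly6Clow calls fell to 2, both higher, with p-values from the test statistic. Lmf1, which matures lipoprotein lipase, was 1.57-fold higher in q2 of Ly6Clow monocytes, at 18.2 FPKM against 11.6 FPKM in q1 (q = 0.000418), in the authors' deposited table. Lpl itself was higher in q2 in the same subset, as given above. Slc27a4, a fatty acid transporter, was at 8.21 FPKM in q2 and 6.33 FPKM in q1 of Ly6Clow monocytes (q = 0.0117) in the authors' deposited table. Ffar2, a receptor for short-chain fatty acids, was at 1.87 FPKM in q2 and 0.571 FPKM in q1 of Ly6Clow monocytes (q = 0.000418) in the authors' deposited table. It was also called higher in Ly6Chigh monocytes, at 0.717 FPKM in q2 and 0.129 FPKM in q1 (q = 0.0169) in the authors' deposited table, below the 1 FPKM needed to be counted.

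Droplet and storage genes went both ways, with 5 higher and 3 lower of 17 in Ly6Clow monocytes (median 0.06) and 3 higher and 1 lower of 20 in Ly6Chigh monocytes (median 0.08), of which 2 in Ly6Clow and 0 in Ly6Chigh monocytes were called from the test statistic. G0s2, an inhibitor of triglyceride lipolysis, was at 23.2 FPKM in q2 and 50.2 FPKM in q1 of Ly6Clow monocytes (q = 0.000418) in the authors' deposited table. It had the higher value in q2 of Ly6Chigh monocytes, at 3.12 FPKM against 1.18 FPKM in q1 (q = 0.0607, not called), in the authors' deposited table. In Ly6Chigh monocytes Dgat2, an enzyme of triglyceride synthesis, was at 19.7 FPKM in q2 and 11.9 FPKM in q1 (q = 0.0112) in the authors' deposited table. Bscl2, which encodes the droplet assembly protein seipin, was at 70.5 FPKM in q2 and 106 FPKM in q1 of Ly6Chigh monocytes (q = 0.0228) in the authors' deposited table.

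Acyl-CoA synthetases and thioesterases other than Acsl1 were 4 higher and 1 lower of 14 in Ly6Clow monocytes (median 0.10) and 3 higher and 2 lower of 15 in Ly6Chigh monocytes (median 0.14), of which 3 in Ly6Clow and 2 in Ly6Chigh monocytes were called from the test statistic. Acot7, a thioesterase that splits acyl-CoA, was at 33.8 FPKM in q2 and 14.2 FPKM in q1 of Ly6Clow monocytes, 2.38-fold higher (q = 0.000418), in the authors' deposited table. In Ly6Chigh monocytes it was at 63.7 FPKM in q2 and 25.3 FPKM in q1, 2.52-fold higher (q = 0.000859), in the authors' deposited table. Dbi, the acyl-CoA binding protein, was at 279 FPKM in q2 and 152 FPKM in q1 of Ly6Clow monocytes (q = 0.000418) and at 558 and 385 FPKM in q2 and q1 of Ly6Chigh monocytes (q = 0.0325) in the authors' deposited table. Acss2, which makes acetyl-CoA from acetate, was at 17.0 FPKM in q2 and 9.47 FPKM in q1 of Ly6Clow monocytes (q = 0.000418), and its mitochondrial relative Acss1 was at 9.18 FPKM in q2 and 19.8 FPKM in q1 of Ly6Chigh monocytes (q = 0.000859), in the authors' deposited table.

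Mitochondrial oxidation genes other than Cpt1a were 7 higher and 1 lower of 22 in Ly6Clow monocytes (median 0.16) and 2 higher and 0 lower of 22 in Ly6Chigh monocytes (median 0.21). The differences were small, and 0 were called from the test statistic in either subset. Acadm, the medium-chain acyl-CoA dehydrogenase, was 1.38-fold higher in q2 of Ly6Clow monocytes (q = 0.000418), and Acadl and Eci2, further enzymes of the pathway, were 1.31-fold (q = 0.003) and 1.35-fold higher (q = 0.00413) in the authors' deposited table. Etfb, a subunit of the electron carrier of these dehydrogenases, was at 85.6 FPKM in q2 and 67.9 FPKM in q1 of Ly6Clow monocytes (q = 0.0146) and at 104 and 67.8 FPKM in q2 and q1 of Ly6Chigh monocytes (q = 0.0187) in the authors' deposited table. Peroxisomal oxidation genes were 5 higher and 2 lower of 15 in Ly6Clow monocytes (median 0.05) and 0 higher and 1 lower of 16 in Ly6Chigh monocytes (median -0.13), of which 2 in Ly6Clow and 0 in Ly6Chigh monocytes were called from the test statistic. Phyh, which starts the oxidation of branched fatty acids, was at 52.6 FPKM in q2 and 79.5 FPKM in q1 of Ly6Clow monocytes (q = 0.000418) in the authors' deposited table. Abcd2 was at 20.3 FPKM in q2 and 13.3 FPKM in q1 of Ly6Clow monocytes (q = 0.000418), and at 19.9 FPKM in q2 and 29.8 FPKM in q1 of Ly6Chigh monocytes (q = 0.028), in the authors' deposited table.

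**Figure D4:**
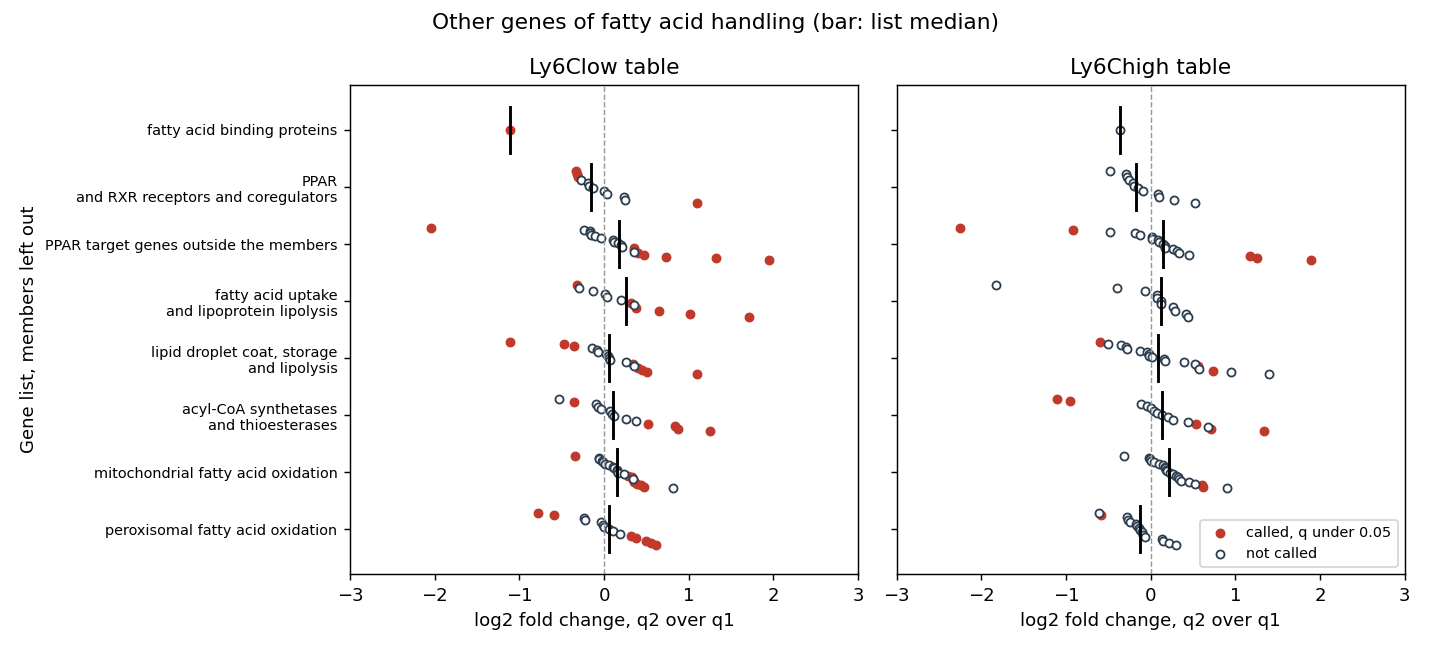
Log2 fold change of q2 over q1 (x axis) for tested genes with an FPKM of at least 1 in 8 lists around fatty acid handling (y axis, the 9 genes left out), filled where called by the authors and open where not, with a bar at each list median, for the Ly6Clow table (left) and the Ly6Chigh table (right). Medians of the lists with over 1 gene lie between -0.17 and 0.26, and Abca1 is the lowest point in both panels, at -2.04 in Ly6Clow and -2.25 in Ly6Chigh monocytes.

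Genes with the most similar profile over the 4 condition values were found by the Euclidean distance between profiles of log2(FPKM + 1), each centred on its own mean, among 10985 genes. Nearest to Fabp5 were Cish, a feedback inhibitor of cytokine receptors, at distance 0.76, Mir6990 at 1.33 and the serine protease gene Htra3 at 1.48. Cish was at 31.5 FPKM in q2 and 0.272 FPKM in q1 of Ly6Clow monocytes and at 22.3 and 0.384 FPKM in q2 and q1 of Ly6Chigh monocytes in the authors' deposited table. Nearest to Pparg were Tmem26 at 0.38, the joint row of H2-Q6 and H2-Q8 at 0.64 and the Fc receptor gene Fcgr4 at 0.64. Nearest to Cd36 were the receptor gene Lilra5 at 0.61, Fabp4 at 0.94 and Mir3064 at 0.97. With 0.1 added in place of 1, 1 of 3 neighbours was shared for each of the 3 genes: Cish, the H2-Q6 and H2-Q8 row, and Lilra5. The H2-Q6 and H2-Q8 row, Mir6990 and Mir3064 were called in neither table. Mir6990 was at 0 in q1 of both tables, and Mir3064 was at 0 in both conditions of Ly6Chigh monocytes.

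Markers of other cells were read beside these values, since endothelial cells and adipocytes express Fabp4, Cd36 and Lpl, platelets Cd36, and dendritic cells and macrophages Pparg. The 8 endothelial markers summed to 15.4 FPKM in q2 and 21.5 FPKM in q1 of Ly6Clow monocytes and to 3.81 and 12.6 FPKM in q2 and q1 of Ly6Chigh monocytes, and 6 of them were under 1 FPKM in every condition, with Cdh5, the cadherin of these cells, at most 0.189 FPKM. The sums were nearly all Flt1 and Vwf, both called lower in q2 of Ly6Clow monocytes, while in Ly6Chigh monocytes Flt1 was at 0.681 FPKM in q2 and 8.57 FPKM in q1 (q = 0.000859) in the authors' deposited table. Of 6 adipocyte markers, Lep and Cfd were at 0 in all conditions and Lipe alone exceeded 1 FPKM; the sum was 37.8 FPKM in q2 and 36.1 FPKM in q1 of Ly6Clow monocytes, and 24.5 and 25.2 FPKM in q2 and q1 of Ly6Chigh monocytes. Of 8 alveolar macrophage markers, which name cells rich in Pparg and Fabp4, Car4, Krt79 and Cidec were at 0 throughout; the summed level was 8.08 FPKM in q2 and 6.69 FPKM in q1 of Ly6Clow monocytes, and 1395 FPKM in q2 and 964 FPKM in q1 of Ly6Chigh monocytes, there almost all from Chil3, a gene that Ly6Chigh monocytes also express.

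Several platelet and dendritic cell markers were lower in q2 of Ly6Chigh monocytes, where Cd36 and Pparg were lower too. Of 7 platelet markers 3 were called lower and 0 higher, with a sum of 208 FPKM in q2 and 314 FPKM in q1. Of all tested genes in that subset, 7.54% were called lower. From the test statistic 0 of the 7 platelet markers were called, beside 5.65% of all tested genes. Of 3 measured dendritic cell markers 3 were lower, with a sum of 4.64 FPKM in q2 and 78.9 FPKM in q1. These sums were mostly from 1 gene, Cd209a, at 3.17 FPKM in q2 and 62.1 FPKM in q1 in the authors' deposited table. In Ly6Clow monocytes the platelet sum was 386 FPKM in q2 and 435 FPKM in q1, with 1 of 7 lower, and the dendritic cell sum 211 and 149 FPKM in q2 and q1, with 2 of 4 higher and 2 lower. Tissue macrophage markers were 5 lower of 7 in Ly6Clow monocytes, with a sum of 101 FPKM in q2 and 247 FPKM in q1, and 3 higher and 3 lower of 6 in Ly6Chigh monocytes, with 106 and 128 FPKM in q2 and q1. The part of all these markers in the differences of the 9 genes was not tested.

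Calls among lymphoid, neutrophil and erythroid markers differed by list. B cell markers summed to 288 FPKM in q2 and 211 FPKM in q1 of Ly6Clow monocytes (4 of 8 higher) and to 76.4 and 93.0 FPKM in q2 and q1 of Ly6Chigh monocytes (1 of 7 higher). NK cell markers summed to 58.4 and 41.2 FPKM in q2 and q1 of Ly6Clow monocytes (3 of 6 higher) and to 4.90 and 10.98 FPKM in q2 and q1 of Ly6Chigh monocytes (2 of 3 lower). T cell markers summed to at most 6.05 FPKM in any condition, and 0 of 2 measured were called by the authors' Cuffdiff test in either table, with 0 at an unadjusted p under 0.05 in each. Neutrophil markers were 3 higher and 1 lower of 4 in Ly6Clow monocytes, with sums of 103 and 154 FPKM in q2 and q1. They were 2 higher and 1 lower of 6 in Ly6Chigh monocytes, with 644 and 338 FPKM in q2 and q1. The Ly6Clow sums were mostly Csf3r, at 63.7 FPKM in q2 and 137 FPKM in q1 in the authors' deposited table. The Ly6Chigh q2 sum was mostly S100a8, at 422 FPKM against 62.9 FPKM in q1 in the authors' deposited table. Erythroid markers summed to 744 and 555 FPKM in q2 and q1 of Ly6Clow monocytes (2 of 3 higher) and to 332 and 324 FPKM in q2 and q1 of Ly6Chigh monocytes (0 of 3 called by the authors' Cuffdiff test, 0 at an unadjusted p under 0.05). The 10 monocyte defining genes were measured in both tables. They summed to 7989 and 14028 FPKM in q2 and q1 of Ly6Clow monocytes and to 19197 and 33867 FPKM in q2 and q1 of Ly6Chigh monocytes. These sums were mostly from Lyz2, which was called in neither table. Of the 10, 2 were called higher and 4 lower in q2 of Ly6Clow monocytes, and 1 higher and 4 lower in Ly6Chigh monocytes. From the test statistic 4 and 2 were called. Csf1r, Cx3cr1 and Fcgr4 were called lower in both tables by the authors. The part of these genes in the differences of the 9 was not tested.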

How the data were processed

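Reads were trimmed, aligned and quantified by the authors with Trimmomatic 0.33, TopHat2 2.0.14, Bowtie2 2.2.5, Cufflinks 2.21 and Cuffdiff 2.21 on mm10, per the submitters' processing notes; settings are not given in the sources used here. Each of the 2 deposited tables, 1 per subset, holds, for conditions q1 and q2, 1 value each, a test statistic (a score), a p-value and a q-value, per the file headers. The condition values are the authors' FPKM by Cuffdiff's convention; no header or label names their unit. A table was tied to its subset by its own name. No column is named for a sample, so no fit over samples was made, and depth is unknown.

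Log2 fold changes were recomputed from FPKM with Python 3.11.15 and pandas 2.3.3, since 1546 and 1447 cells of the deposited log2 column (Ly6Clow, Ly6Chigh) are spreadsheet errors. The q threshold of 0.05 matched the authors' flag in all 23996 rows of each table. Loci were written 1-based, with strand from GENCODE vM21. The adjustment and ratio steps were tested on simulated data. The 9 genes, the lists and the named genes were chosen with earlier results of these data known. From each list the text names genes called in both tables in 1 direction, then by size of difference, at most 4 per list and table; 1 gene under that rule is not reported here. Alternatives were stricter calls, another adjustment, pseudocounts of 1 and 0.1, rescaling to equal sums, median centring and no FPKM filter; p-values from the test statistic (SciPy 1.17.1) were added after seeing the data.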

Additional observations from a re-analysis of the deposited data

How the results depend on the processing

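No paired analysis was possible because the tables hold 1 value per condition, so neither replicate numbers nor leaving out a sample could be used. Requiring a log2 difference of at least 1 left 3 of the 9 genes called in Ly6Clow (Fabp5, Pparg, Rxra) and 2 in Ly6Chigh monocytes (Fabp5, Pparg), and of the genes around them 9 and 6. Of all tested genes, 5.52% in Ly6Clow and 6.44% in Ly6Chigh monocytes were called at that setting. At q under 0.01 the genes around them gave 27 and 8 calls, beside 18.2% and 9.08% of all tested genes. Two-sided normal p-values from the deposited test statistic, adjusted over all tested genes and chosen after seeing the data, called 4 of the 9 in Ly6Clow and 2 in Ly6Chigh monocytes (Fabp5, Pparg), 12 and 5 of the genes around them, and 938 and 657 of all genes against 3172 and 1699 by the authors' Cuffdiff p-values; the cause was not tested. Adjusting the authors' p-values over genes with an FPKM of at least 1 kept 6 and 4 of the 9. The same setting called 2953 of 10608 tested genes with that FPKM in Ly6Clow and 1640 of 10508 in Ly6Chigh monocytes. Rescaling to equal sums reversed the Acsl1 log2 ratio of Ly6Clow over Ly6Chigh monocytes, to 0.076 in q2 and 0.13 in q1. All 18 log2 differences of the 9 genes moved by less than the spread implied by the test statistic under both pseudocounts and both scalings. Differences smaller than the unknown depth could resolve may be missed.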
